A study of Homo sapiens with 3 samples.

Results

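The genes described here encode the oxygen-sensing machinery that acts on the hypoxia-inducible factors (HIFs): the HIF subunits EPAS1, HIF3A and ARNT, the prolyl hydroxylases EGLN1, EGLN2 and EGLN3, the asparaginyl hydroxylase HIF1AN, the ubiquitin ligase subunit VHL and the HIF antagonist CITED2. They were chosen by symbol, as all transcripts that GENCODE 29 assigns to these 9 genes, out of 52992 genes matched. Together they held 83 of 181857 matched transcripts. RNA was recovered from lysates of J82 cells, an established human bladder cancer line, with 3 baits: a GST fusion of the Ala mutant of ZFP36L1, a GST fusion of wild-type ZFP36L1, and glutathione S-transferase (GST) alone as the control. Each pull-down was sequenced once, so there were 3 libraries and no replicate. The labels do not name the residues replaced by alanine.

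HIF-alpha subunits are made continuously and, when oxygen is present, are hydroxylated on prolines by the EGLN enzymes, bound by VHL and degraded. A further hydroxylation by HIF1AN, also called FIH, blocks recruitment of the coactivators EP300 and CREBBP. When oxygen falls, the alpha subunits persist, pair with ARNT and switch on hypoxia-response genes. ZFP36L1 is a zinc-finger protein that recruits decay enzymes to mRNAs. Its core binding site is UAUUUAU, usually found in the 3' untranslated region (3' UTR).

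The libraries held between 19137867 and 19845386 estimated counts, and genes of the mitochondrial genome took 7.53% with the Ala mutant, 15.5% with wild-type ZFP36L1 and 10.6% with GST. Of 13 epithelial and urothelial markers 5 had a mean of at least 10 counts (KRT7, KRT8, KRT18, EPCAM and UPK1A), while KRT5, KRT19 and UPK3A were at 0 in each library. The summed level of the 13 was 1745 CPM (counts scaled to the library size) with the Ala mutant, 69.3 with the wild type and 943 with GST, and KRT7, KRT8 and KRT18 made up nearly all of it. EPCAM went the other way, with 3, 55 and 11 counts, and UPK1A had 24, 20 and 21. The mesenchymal markers VIM, CDH2 and FN1, all measured, summed to 1726, 207 and 2243 CPM, nearly all from VIM, while FN1 was highest with the wild type (263, 1403 and 573 counts) and CDH2 had 109, 150 and 186 counts. The part of these markers in the results was not tested. No leukocyte, erythroid or hepatocyte marker reached that mean. The table of the GST library carries another run code than the other tables, so run and GST cannot be told apart in the comparisons with GST. Counts were scaled between libraries by the trimmed mean of M values (TMM), and 95% intervals of ratios cover counting error only. They compare shares of a library, not amounts of RNA. Counts of genes as higher or lower take differences of at least 2-fold whose interval excluded 1.

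The 3' UTR windows around each UAUUUAU heptamer are shown first, since this is the site that ZFP36L1 is known for. In all 5 such sites were found in the 3' UTRs of the full-length coding transcripts, on the transcript strand, in ARNT, VHL and HIF1AN (GENCODE 29 sequence and GRCh38 coordinates, 5′ to 3′, heptamer in capitals).
ARNT, chr1:150810390-150810418, minus strand: guauacauauaUAUUUAUaucacaauuua
VHL, chr3:10150177-10150205, plus strand: cauuagagaagUAUUUAUcaggagaaggu
HIF1AN site 1, chr10:100553908-100553936, plus strand: gguggugguuaUAUUUAUuaugugauuua
HIF1AN site 2, chr10:100558997-100559025, plus strand: uaaaaagugugUAUUUAUacucgaauuuu
HIF1AN site 3, chr10:100559155-100559183, plus strand: aagauuuccugUAUUUAUaaacuuaauuu

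EPAS1, EGLN1 and CITED2 held no UAUUUAU in the 3' UTR of that transcript but did hold the shorter pentamer AUUUA, which is also part of every UAUUUAU. For CITED2 the transcript was CITED2-203, and 448 further bases in the last exon of CITED2-201 were not searched. For each of these genes, the window with the highest A and U content around an AUUUA is shown, with the pentamer in capitals.
EPAS1, chr2:46384921-46384949, plus strand: caaugacuucuaAUUUAuauuauccauag
EGLN1, chr1:231366003-231366031, minus strand: auauuagguacaAUUUAucuaaacugaau
CITED2, chr6:139372287-139372315, minus strand: aaauacuuguuaAUUUAuucuauuuuaau
The 3' UTR of EGLN2 held neither motif.

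Of the 9 genes, 7 reached a mean of 10 counts and are described as measured. HIF3A, an alpha subunit that can restrain the others, had 4 counts with the Ala mutant, 8 with the wild type and 3 with GST, a mean of 5, and is not measured. EGLN3, a hypoxia-inducible prolyl hydroxylase, was listed at 0 for all 11 of its transcripts in every library, which allows up to 0.176 CPM with the Ala mutant, 0.150 with the wild type and 0.159 with GST. The measured gene with the fewest counts was EPAS1.

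**Figure D1:**
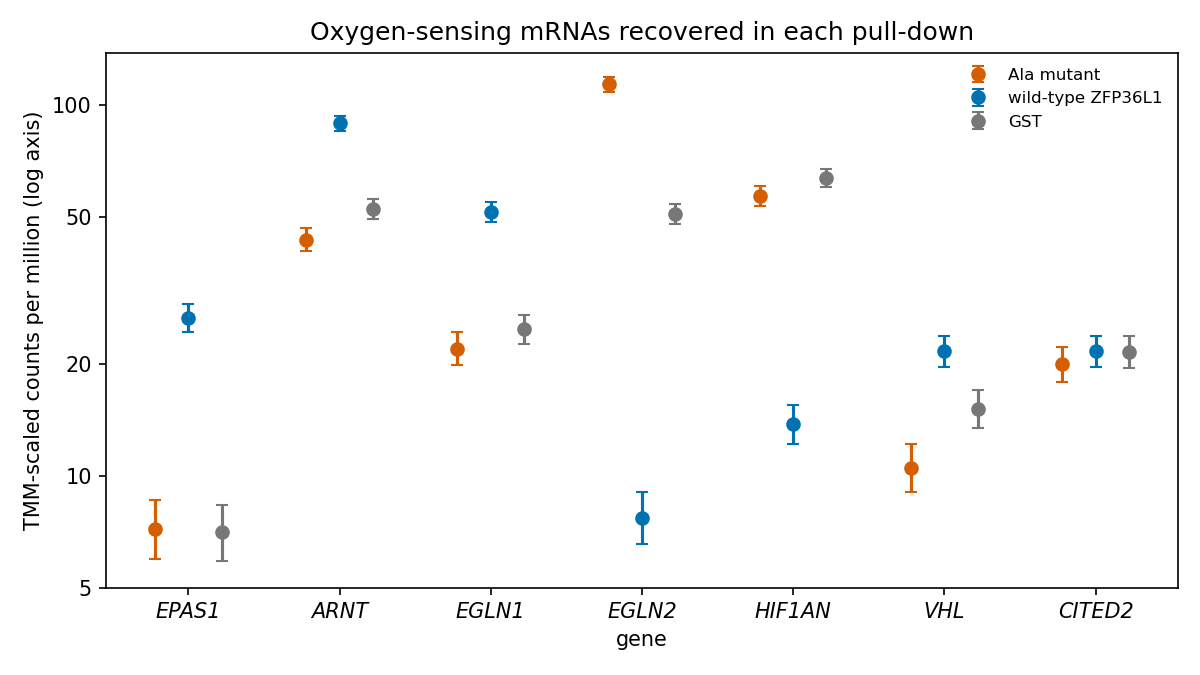
TMM-scaled CPM (log axis) of the 7 measured oxygen-sensing genes in the Ala mutant, wild-type and GST pull-downs, 1 library each; bars are exact 95% Poisson intervals, which cover counting error only. EPAS1, ARNT, EGLN1 and VHL are highest with the wild type, EGLN2 and HIF1AN are lowest there, and CITED2 overlaps in all 3 libraries.

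With the Ala mutant in place of the wild type, 4 of the 7 measured genes were lower (EPAS1, EGLN1, ARNT and VHL), 2 were higher (EGLN2 and HIF1AN) and CITED2 was neither. Among all 14082 genes tested, 30.1% were lower and 36.1% were higher in this comparison. The median log2 ratio of the members was -1.04, against 0.04 for all genes. With the wild type over GST, 2 members were higher (EPAS1 and EGLN1) and 2 were lower (EGLN2 and HIF1AN), against 25.5% and 34.2% of all genes, with medians of 0.51 and -0.04. With the Ala mutant over GST only EGLN2 was higher and none was lower, against 9% and 5.13% of all genes, with medians of -0.16 and 0.04. In this last comparison the scaling sets the balance of calls, as 63.7% of all genes called were higher with TMM, 48.0% with total counts and 38.6% with totals that left out the most abundant genes. The comparisons share libraries, so they are not independent of each other.

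**Figure D2:**
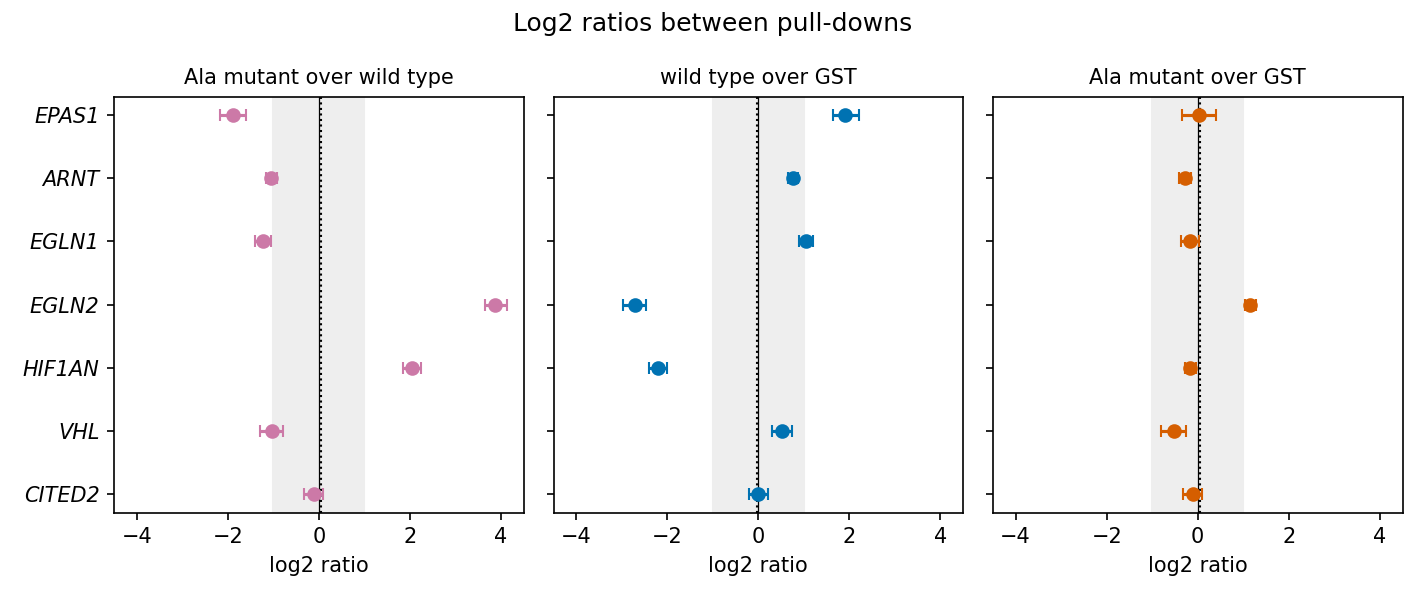
Log2 ratios of the 7 measured genes for the Ala mutant over wild type, wild type over GST and the Ala mutant over GST; bars are 95% counting intervals, the grey band marks less than 2-fold and the dotted line is the median of 14082 genes. EGLN2 spans the widest range, from -2.72 (wild type over GST) to 3.88 (Ala mutant over wild type), and in the right panel EGLN2 alone lies outside the band.

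Among the HIF subunits, EPAS1 (also called HIF-2 alpha, ENSG00000116016, chr2:46293667-46386703, plus strand) had 123 counts with the Ala mutant, 532 with the wild type and 133 with GST. The wild-type library thus stood apart from the other two, whose Poisson intervals overlapped. EPAS1 was 3.70-fold lower with the Ala mutant than with the wild type (log2 -1.89, 95% interval -2.18 to -1.60) and 3.77-fold higher with the wild type than with GST (log2 1.91, 1.64 to 2.20). The ratio over GST exceeded that of 93.6% of all genes tested. With the Ala mutant over GST the log2 ratio was 0.03 (-0.34 to 0.39).

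ARNT, the shared beta subunit that every alpha subunit needs in order to bind DNA (ENSG00000143437, chr1:150809705-150876768, minus strand), had 742 counts with the Ala mutant, 1785 with the wild type and 990 with GST. It was highest with the wild type and lowest with the Ala mutant, and no 2 of the 3 Poisson intervals overlapped. ARNT was 2.06-fold lower with the Ala mutant than with the wild type (log2 -1.04, -1.17 to -0.92), just past the threshold, and 1.70-fold higher with the wild type than with GST (log2 0.77, 0.66 to 0.88), short of it. The call of Ala over wild type ended when only protein-coding transcripts were summed (log2 -0.27), with the single most abundant transcript (-0.29) or when a fit on transcript GC content and length was removed (-0.53). For the wild type over GST, the first 2 of these settings turned the sign (-0.14 and -0.25), and TPM gave 1.07.

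The hydroxylases were divided. EGLN1 (PHD2, the main prolyl hydroxylase of normoxic cells, ENSG00000135766, chr1:231363751-231425044, minus strand) had 377 counts with the Ala mutant, 1029 with the wild type and 469 with GST. EGLN2 (PHD1, a largely nuclear prolyl hydroxylase, ENSG00000269858, chr19:40798996-40808433, plus strand) had 1946 counts with the Ala mutant, 154 with the wild type and 960 with GST. EGLN1 was thus highest, and EGLN2 lowest, with the wild type.

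EGLN1 was 2.34-fold lower with the Ala mutant than with the wild type (log2 -1.22, -1.40 to -1.05) and 2.07-fold higher with the wild type than with GST (log2 1.05, 0.89 to 1.21), a value at the threshold. Both calls ended with the fit on GC content and length removed (log2 -0.19 and 0.32). The call over GST also ended with TPM and a pseudocount of 0.5 (0.97). That call ended too with a minimum mean of 100 counts (0.998) and the single most abundant transcript (0.96). EGLN2 was 14.7-fold higher with the Ala mutant than with the wild type (log2 3.88, 3.64 to 4.13), 6.58-fold lower with the wild type than with GST (log2 -2.72, -2.98 to -2.48) and 2.23-fold higher with the Ala mutant than with GST (log2 1.16, 1.05 to 1.27). Removing the GC and length fit left the first of these calls (log2 1.40) and ended the others (-0.80 and 0.60). The last also ended with TPM (0.91) and with totals that left out the most abundant genes (0.95). For EGLN2 the fit used the GC content and length of EGLN2-211, a model of 477 bases.

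The split between these 2 paralogs does not depend on how libraries are scaled. EGLN1 made up 16.2% of their joint counts with the Ala mutant (exact 95% binomial interval 14.8 to 17.8%), 87.0% with the wild type (84.9 to 88.8%) and 32.8% with GST (30.4 to 35.3%). The intervals of the 3 libraries did not overlap. These shares are of counts, which also follow transcript length: per length, EGLN1 had 4.03 TPM with the Ala mutant, 9.56 with the wild type and 4.63 with GST, below the 124, 11.4 and 65.6 TPM of EGLN2 in each library, with overlapping counting intervals for the wild type. As EGLN2 transcripts share 28.9% of their 31-base words with transcripts of other genes, mainly the read-through gene RAB4B-EGLN2, counts could be divided between the 2 genes; RAB4B-EGLN2 was listed at 0 in each library.

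HIF1AN (ENSG00000166135, chr10:100529072-100559998, plus strand) had 972 counts with the Ala mutant, 275 with the wild type and 1199 with GST. Like EGLN2 it was lowest with the wild type, but the Ala mutant library did not exceed GST. HIF1AN was 4.12-fold higher with the Ala mutant than with the wild type (log2 2.04, 1.85 to 2.24) and 4.61-fold lower with the wild type than with GST (log2 -2.20, -2.40 to -2.02). With TPM and a pseudocount of 0.5 in place of counts these log2 ratios were 1.18 and -1.57, both still past the threshold. HIF1AN had 0.949 TPM with the wild type, so the pseudocount makes both of these ratios smaller in size. With the Ala mutant over GST the log2 ratio was -0.16 (-0.29 to -0.04). Over all its annotated models, HIF1AN overlaps NDUFB8, a respiratory chain gene on the opposite strand, by 325 bases. The gene starts at chr10:100529072, but HIF1AN-201, the model that held all HIF1AN counts, starts at chr10:100535859. Whether HIF1AN-201 itself holds the overlap was not tested. NDUFB8 had 4286, 1637 and 4167 counts with the Ala mutant, the wild type and GST. Whether counting used strand is not stated in the sources used here, and the part of NDUFB8 reads in the HIF1AN ratio was not tested.

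VHL, which recognises hydroxylated HIF-alpha (ENSG00000134086, chr3:10141008-10152220, plus strand), had 180 counts with the Ala mutant, 432 with the wild type and 286 with GST. The order of the libraries was that of ARNT. VHL was 2.05-fold lower with the Ala mutant than with the wild type (log2 -1.04, -1.30 to -0.79), and its log2 ratio was 0.51 (0.29 to 0.73) for the wild type over GST and -0.53 (-0.80 to -0.25) for the Ala mutant over GST. The call of Ala over wild type ended when only protein-coding transcripts were summed (log2 -0.99) and when the GC and length fit was removed (-0.60). For the wild type over GST the single most abundant transcript gave 1.14, past the threshold.

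CITED2, which competes with HIF-alpha for EP300 and CREBBP (ENSG00000164442, chr6:139371807-139374620, minus strand), had 342 counts with the Ala mutant, 433 with the wild type and 408 with GST. Its Poisson intervals overlapped in CPM in all 3 libraries. The log2 ratio was -0.12 (-0.33 to 0.09) for the Ala mutant over the wild type, 0.0035 (-0.19 to 0.20) for the wild type over GST and -0.11 (-0.33 to 0.10) for the Ala mutant over GST. Differences of 2-fold lay outside each of these intervals.

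The summed level of the 7 measured genes was 274 CPM with the Ala mutant, 233 CPM with the wild type and 236 CPM with GST, while its make-up shifted between genes. EGLN2 took 41.6% of the summed counts with the Ala mutant (40.1 to 43.0%), 3.32% with the wild type (2.82 to 3.88%) and 21.6% with GST (20.4 to 22.8%). ARNT took 15.8%, 38.5% and 22.3%, EGLN1 8.05%, 22.2% and 10.6%, and EPAS1 2.63%, 11.5% and 2.99%, in the same order of libraries. HIF1AN took 20.8% with the Ala mutant, 5.93% with the wild type and 27.0% with GST.

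**Figure D3:**
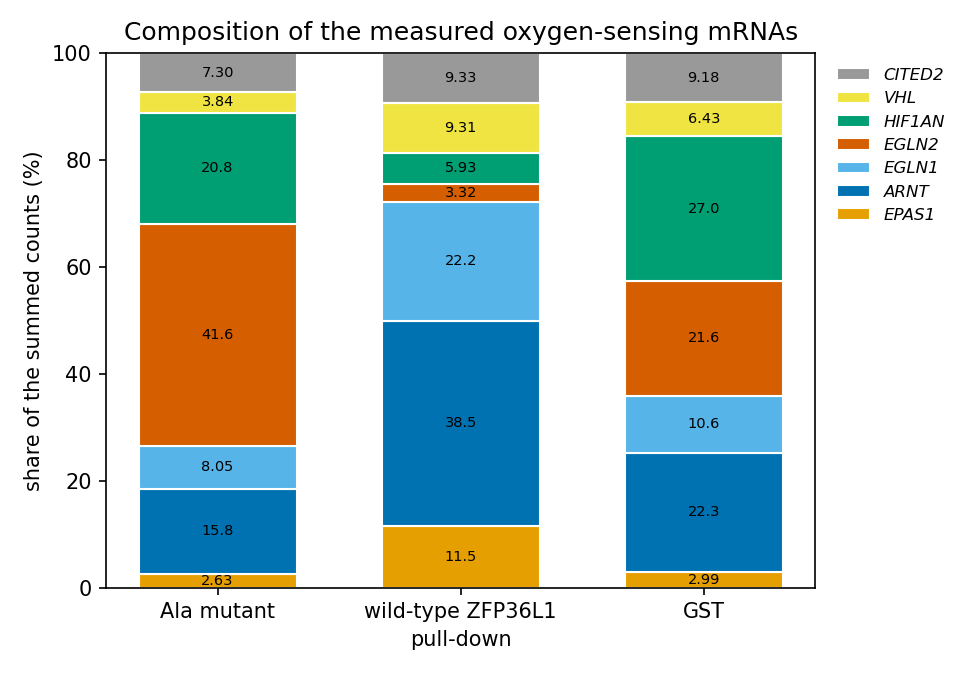
Share of the summed counts of the 7 measured genes (%) that each gene took in the Ala mutant, wild-type and GST pull-downs. With the wild type EGLN2 and HIF1AN take 3.32% and 5.93%, their lowest shares, and ARNT and EGLN1 take 38.5% and 22.2%, their highest.

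Levels of different genes can be compared only per length, in TPM. EGLN2 had the highest TPM with the Ala mutant (124) and with GST (65.6), and most of its counts were assigned to short models of 991 and 477 bases. With the wild type ARNT ranked first at 20.3 TPM, followed by CITED2 at 12.0, EGLN2 at 11.4, EGLN1 at 9.56, VHL at 7.26, EPAS1 at 6.86 and HIF1AN at 0.949. There the counting intervals of CITED2 and EGLN2, of EGLN2 and EGLN1, and of VHL and EPAS1 overlapped. CITED2 and ARNT followed EGLN2 with the Ala mutant (7.90 and 6.62 TPM) and with GST (10.3 and 9.43 TPM), with overlapping intervals in each pair. EPAS1 had the lowest TPM in both of these libraries, at 1.32 with the Ala mutant and 1.67 with GST.

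Counts per transcript showed which annotated forms carried these differences, with the limit that kallisto divides reads between overlapping models by estimation. Of the 83 transcripts, 15 had a mean of at least 10 counts. With the Ala mutant over the wild type, 5 of the 15 were higher and 5 lower, against 45.9% and 26.2% of 27464 transcripts tested. With the wild type over GST 5 were higher and 7 lower (23.4% and 42.9% of transcripts tested), and with the Ala mutant over GST 3 were higher and 2 lower (19.7% and 12.8%).

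All EPAS1 counts apart from 1 with GST were assigned to EPAS1-206, a model annotated as retained intron, and the full-length coding transcript EPAS1-201 was listed at 0 in all 3 libraries. EPAS1-206 touches 5 of the 16 exons of EPAS1-201 and covers 99.7% of its 3' UTR, so that 3095 of its 3622 bases (85.5%) are shared with the coding transcript. The other 527 bases are intron upstream of the first of these exons. The join of the retained intron (lower case) and the exon (capitals) is shown, as it is the sequence that sets this model apart, at chr2:46380226-46380227.
EPAS1-206: gctgtctcccctcagACGGATTTCAATGAG
Apart from that 1 count, no other EPAS1 model had counts in any library, so the EPAS1 values above are those assigned to EPAS1-206. As most of that model is shared with the coding transcript, reads of the 2 models cannot be told apart over the shared bases, and whether the values are those of the coding mRNA was not tested.

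For ARNT, the excess with the wild type was assigned to ARNT-204, a model annotated for nonsense-mediated decay. ARNT-204 had 214 counts with the Ala mutant, 994 with the wild type and 175 with GST, whereas the coding transcript ARNT-202 had 525, 787 and 811. ARNT-204 was 3.97-fold lower with the Ala mutant than with the wild type (log2 -1.99, -2.21 to -1.78) and 5.35-fold higher with the wild type than with GST (log2 2.42, 2.19 to 2.66). ARNT-202 had log2 ratios of -0.36 (-0.52 to -0.20) and -0.13 (-0.27 to 0.02) in the same comparisons. ARNT-204 made up 28.9% of ARNT counts with the Ala mutant (25.6 to 32.2%), 55.7% with the wild type (53.3 to 58.0%) and 17.7% with GST (15.3 to 20.2%). It lies wholly within ARNT-202, lacks 5 of its 22 exons and 1184 of its bases in all, and holds 83.2% of its 3' UTR, including the UAUUUAU printed above. Only 1.44% of its 31-base words occur in no other ARNT transcript, and the intervals do not cover the division of reads between models. The models also differ at both ends. The first exon of ARNT-204 has 163 bases against 226 in ARNT-202, and the last 2017 against 2406. The shares rest on all of these differences. The joins after exon 13 show 1 of them, with the exon that follows in capitals.
ARNT-204: gacagcttccaacagGAACTCTAGCCAAGA
ARNT-202: gacagcttccaacagGTAGTGAAATTAAAA

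VHL showed a like division. VHL-202, which lacks the middle one of 3 exons (123 bases), had 117 counts with the Ala mutant, 364 with the wild type and 143 with GST. The 3-exon transcript VHL-201 had 58.5, 68.1 and 141. VHL-202 was 2.66-fold lower with the Ala mutant than with the wild type (log2 -1.41, -1.73 to -1.11) and 2.40-fold higher with the wild type than with GST (log2 1.26, 0.98 to 1.56). VHL-201 had a log2 ratio of -0.0050 (-0.54 to 0.52) for the Ala mutant over the wild type and was 2.19-fold lower with the wild type than with GST (log2 -1.13, -1.57 to -0.71). VHL-202 held 64.9% of VHL counts with the Ala mutant (57.6 to 71.9%), 84.2% with the wild type (80.5 to 87.6%) and 50.2% with GST (44.1 to 55.9%). Only 1.05% of its 31-base words occur in no other VHL transcript, and the intervals do not cover the division of reads between models. The models also differ at both ends, where VHL-201 extends 780 bases further upstream and 138 further downstream, and the shares rest on all of these differences. Both carry the UAUUUAU shown above. The joins after the first exon differ as follows, with the following exon in capitals.
VHL-202: tccacagctaccgagTGTATACTCTGAAAG
VHL-201: tccacagctaccgagGTCACCTTTGGCTCT

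**Figure D4:**
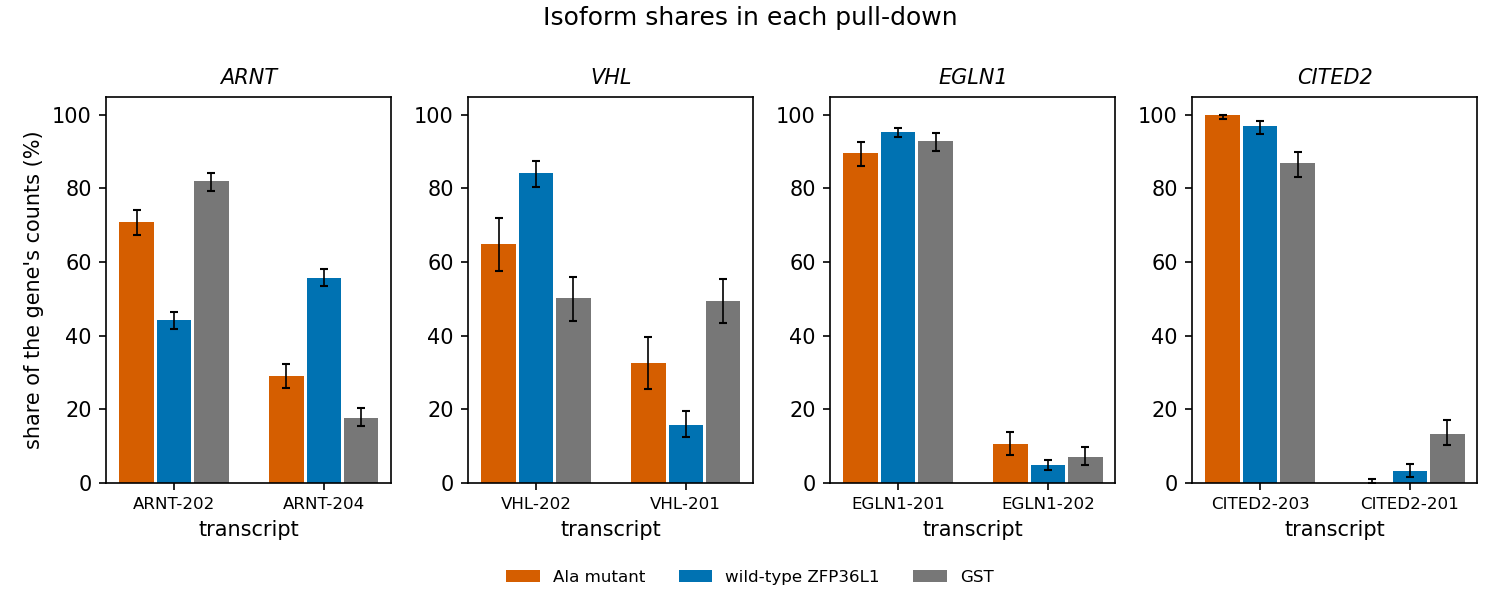
Share of each gene's estimated counts (%) assigned to its transcripts with a mean of at least 10 counts, for ARNT, VHL, EGLN1 and CITED2 in the Ala mutant, wild-type and GST pull-downs; error bars are exact 95% binomial intervals. ARNT-204 and VHL-202 peak with the wild type, at 55.7% and 84.2%, and CITED2-201 is highest with GST at 13.1%.

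In EGLN1 the coding transcript EGLN1-201 carried 89.6% of counts with the Ala mutant, 95.4% with the wild type and 93.0% with GST, and its log2 ratio of -1.31 for the Ala mutant over the wild type (2.48-fold lower) was close to that of the gene. The short EGLN1-202, which shares 661 of its 829 bases with EGLN1-201, had a log2 ratio of -0.07 (-0.72 to 0.56). In EGLN2 4 coding models were each lowest with the wild type. EGLN2-209 had 1133, 75.8 and 542 counts, EGLN2-211 had 496, 40.5 and 228, and EGLN2-201 had 244, 9.71 and 152, with the Ala mutant, the wild type and GST. EGLN2-214 had 41.2 counts with the Ala mutant, 0 with the wild type and 24.7 with GST. Against a floor of 3 counts in the library at 0, it was at least 15.9-fold higher with the Ala mutant than with the wild type. That bound covers counting error only, not the division of reads between models. Only 6.06% of the 31-base words of EGLN2-214 occur in no other EGLN2 transcript. The retained-intron model EGLN2-205 differed from the 4 coding models, with 23.7 counts with the Ala mutant, 28 with the wild type and 0 with GST. It made up 1.22% of EGLN2 counts with the Ala mutant (0.79 to 1.83%) and 18.2% with the wild type (12.4 to 25.2%). For the count of 0 with GST the exact 95% upper limit was 0.384%.

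HIF1AN counts were all assigned to the coding transcript HIF1AN-201, a model of 13011 bases of which 11861 are 3' UTR. For CITED2 the transcript CITED2-203 held 100% with the Ala mutant, 96.9% with the wild type and 86.9% with GST, and its log2 ratios stayed between -0.07 and 0.16. CITED2-201, whose deposited length of 1905 bases differs from the 2354 bases of GENCODE 29, had 0 counts with the Ala mutant, 13.4 with the wild type and 53.5 with GST. The level with GST was at least 16.3-fold higher than with the Ala mutant, against the same floor, and CITED2-201 was 4.27-fold lower with the wild type than with GST (log2 -2.10, -3.13 to -1.24).

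Sites and ratios were set side by side for the members. Of 11448 genes tested with an annotated 3' UTR, 3553 held a UAUUUAU on the transcript strand, with a median log2 ratio of 0.94 for the wild type over GST against -0.68 for the genes without. Of the 7 measured members 3 held one in the 3' UTR that was searched. The member with the highest ratio of the wild type to GST, EPAS1, held none in its 2043 bases (44.8% of 3' UTRs of like length hold one, where like means up to 25% longer or shorter by the same factor), nor did EGLN1 in 2660 bases (55.1%). HIF1AN, lower with the wild type, held 3, at 5782, 10871 and 11029 bases after the stop codon. Of 74 3' UTRs of like length, 60.8% hold 3 or more, and the median is 3. ARNT and VHL held 1 each, at 1614 and 223 bases, where 746 of 1493 and 726 of 1489 3' UTRs of like length hold one. EGLN2, with a 3' UTR of 569 bases and 59.2% GC, held no UAUUUAU, as do all but 17.7% of 3' UTRs of its length. The nonamer UUAUUUAUU occurred in none of the 7.

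AUUUA was present 7 times in the 3' UTR of EGLN1, 6 times in ARNT, 5 times in EPAS1, 3 times in VHL, 2 times in CITED2 and 16 times in HIF1AN, whose first copy lies 4039 bases after the stop codon. Per kilobase of 3' UTR these numbers come to 2.63 for EGLN1, 2.59 for ARNT, 2.45 for EPAS1, 2.28 for CITED2, 1.33 for VHL-201, 1.35 for HIF1AN and 0 for EGLN2, against a median of 1.62 for all genes tested. The 2 members that were lower with the wild type than with GST, HIF1AN and EGLN2, lay below that median, as did VHL. GC content moved with the ratios: across 11734 genes the Spearman correlation of the log2 ratio with transcript GC content was 0.69 for the Ala mutant over the wild type, -0.61 for the wild type over GST and 0.59 for the Ala mutant over GST, as a description of genes within these 3 libraries. GC content was taken from the coding transcript with the highest mean TPM, with a median of 48.1% over genes with an annotated 3' UTR. It was 56.2% for EGLN2-211, 52.6% for EPAS1-201, 49.9% for CITED2-203, 47.1% for ARNT-202, 46.8% for HIF1AN-201, 46.1% for VHL-202 and 44.1% for EGLN1-201. EPAS1-201 itself was at 0, and EPAS1-206, which held the counts, had 49.97%. EPAS1 and HIF1AN went against this tendency, though HIF1AN-201 and EPAS1-206 lay near the median GC content. With the GC and length fit removed their log2 ratios of the wild type to GST were 2.42 and -2.42. The fit used the coding transcripts named here, so the value of EPAS1 rests on EPAS1-201 (5166 bases), not on EPAS1-206 (3622 bases).

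**Figure D5:**
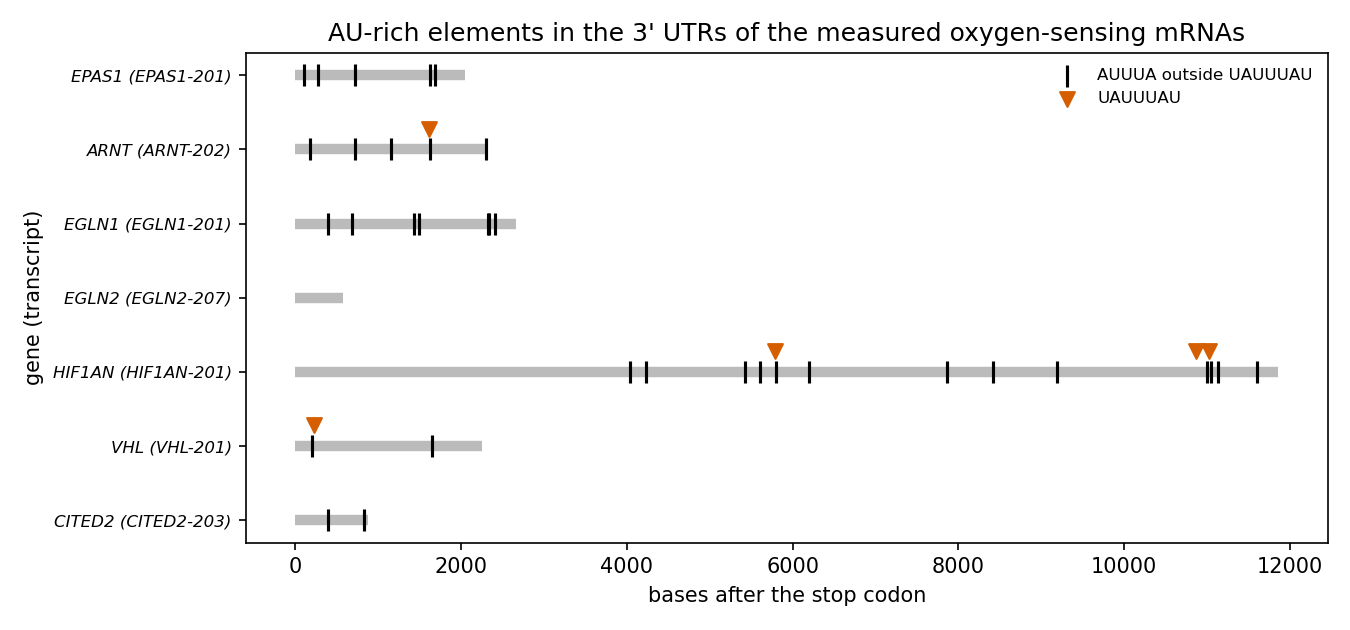
Positions of UAUUUAU (triangles) and of AUUUA outside UAUUUAU (ticks) along the 3' UTR of the transcript with the longest coding sequence of each measured gene, in bases after the stop codon (GENCODE 29). HIF1AN carries 3 UAUUUAU, the first at 5782 bases, ARNT and VHL carry 1 each, and EGLN2 carries neither motif.

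The other genes of the pathway were taken from 4 lists with 46 genes, 44 of them measured. With the Ala mutant over the wild type, 11 were higher and 23 lower, with a median log2 ratio of -1.04. With the wild type over GST, 18 were higher and 9 lower (median 0.79), and with the Ala mutant over GST 2 were higher and 3 lower (median -0.24). The shares of all genes for these comparisons are those given above.

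Of 7 measured components of the VHL ligase complex, 2 were higher and 3 lower with the Ala mutant than with the wild type. Their median log2 ratio was -0.14, and 36.1% of all genes tested were higher and 30.1% lower. The elongins, which together tie VHL to its cullin, went opposite ways: ELOB had 9198 counts with the Ala mutant, 550 with the wild type and 3328 with GST, while ELOC had 3376, 9727 and 2927. ELOB was 19.5-fold higher (log2 4.29) and ELOC 2.47-fold lower (log2 -1.30) with the Ala mutant than with the wild type. The cullin CUL2 was 3.78-fold lower (log2 -1.92), and NEDD8, the modifier that activates cullins, was 3.91-fold higher (log2 1.97).

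Of the HIF subunits and coactivators 6 of 8 were measured. With the Ala mutant over the wild type 1 was higher and 5 lower (median -1.59), against 36.1% and 30.1% of all genes. EP300 and CREBBP, the acetyltransferases that HIF1AN and CITED2 keep away from HIF-alpha, had log2 ratios of -1.79 and -1.62 for the Ala mutant over the wild type and 1.61 and 1.37 for the wild type over GST. The coactivator NCOA2 was also lower with the Ala mutant than with the wild type (log2 -2.28). CITED4, a relative of CITED2, was 23.8-fold higher with the Ala mutant than with the wild type (log2 4.57) and had 7726, 378 and 6835 counts with the Ala mutant, the wild type and GST, unlike CITED2 itself.

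The list of regulators of the prolyl hydroxylases and of HIF stability held 13 measured genes. With the Ala mutant over the wild type 6 were higher and 4 lower (median 0.15), against 36.1% and 30.1% of all genes. The log2 ratios were 4.57 for FKBP8, a membrane immunophilin that controls EGLN1 stability, 4.33 for RACK1, which promotes oxygen-independent HIF1A turnover, 4.51 for the replicative helicase subunit MCM7 and 3.47 for OS9, an endoplasmic reticulum lectin. Of 18 other oxygen-dependent dioxygenases, all measured, 2 were higher and 11 lower (median -1.06), against the same shares of all genes. The DNA demethylases TET2 and TET3 had log2 ratios of -2.83 and -2.87, and ADO, the cysteamine and N-terminal cysteine dioxygenase, one of -2.31. The ribosomal oxygenase gene RIOX1 had 71 counts with the Ala mutant, 0 with the wild type and 428 with GST. Against a floor of 3 counts with the wild type, RIOX1 was at least 27.6-fold higher with the Ala mutant. That bound covers counting error only. The wild-type value is a rounded estimate with a TPM of 1.88e-08, and whether reads were assigned to other models was not tested.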

How the data were processed

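Each deposited table lists 196354 transcripts with an estimated count and a TPM value (abundance per length, scaled to a fixed total), made by the authors with kallisto, per the submitters' processing notes. Those notes also name hg19 and DESeq2. Tool versions and the transcript annotation were not stated there. Effective lengths were the same in the 3 deposited tables. Transcripts were joined by identifier to GENCODE 29 (GRCh38), which matched 92.62%, 93.17% of them with equal length. Estimated counts were summed per gene and rounded, and 14082 genes with a mean of at least 10 were scaled with TMM (edgeR 4.0.16). Log2 ratios used a prior count of 0.5, with exact Clopper-Pearson intervals on the split of counts. The rule was also run on simulated counts that held counting error only. That run cannot speak to the spread between pull-downs or to the division of reads between models. Without replicates there is no test across libraries and no p-value. Members, lists and tests were chosen with earlier results of these data known. All 9 members and their transcripts with a mean of at least 10 counts are named, and for each measured member the 2 nearest genes. From each other list up to 4 genes with a mean of at least 100 counts are named. They have the largest absolute log2 ratios of Ala over wild type, in either direction. The 3' UTR of a member was that of its transcript with the longest coding sequence, and that of other genes came from the coding transcript with the highest mean TPM.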

Additional observations from a re-analysis of the deposited data

How the results depend on the processing

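Under 11 alternatives (total counts, size factors of DESeq2 1.42.0, totals leaving out the most abundant genes, TPM with a pseudocount of 0.5, no minimum and a minimum mean of 100 counts, protein-coding transcripts only, the single most abundant transcript, transcripts of equal length in both annotations, thinned counts, and a cubic fit on GC content and log2 length of transcripts, removed from the ratios), no called ratio of a member changed direction. EPAS1 could not be evaluated with protein-coding transcripts only, nor CITED2 with transcripts of equal length. With protein-coding transcripts only, 1 member was lower for the Ala mutant over wild type and 1 was higher for wild type over GST. Of 10996 genes in that setting, 3367 and 2847 were so called. With a minimum mean of 100 counts, 1 member was higher for wild type over GST, as were 2572 of 9645 genes. With the GC and length fit removed, 1 member was lower for Ala over wild type. For wild type over GST 1 was higher and 1 lower, and 0 were higher for Ala over GST. That last count was also 0 with TPM (548 of 11925 genes higher) and with the totals leaving out abundant genes (778 of 14082). Calls over all 11734 genes also became fewer with the fit removed, with 2824 higher and 2700 lower for Ala over wild type. For wild type over GST 2584 were higher and 2546 lower, and for Ala over GST 304 were higher. For the other pathway genes, the fit left 6 higher and 15 lower for Ala over wild type. For Ala over GST, 1 was higher with total counts, with the totals leaving out abundant genes and with the minimum of 100, 4 with the single transcript and 0 with the fit, and 1 was lower with protein-coding transcripts and with equal lengths, 6 with the single transcript. Among all genes for Ala over GST, 939 of 14082 were higher with total counts and 581 of 9645 with the minimum of 100. With the single transcript 1496 of 13506 were higher and 1231 lower. Lower were 647 of 10996 with protein-coding transcripts and 860 of 13022 with equal lengths. The cause of the changes between settings was not tested. The totals leaving out abundant genes moved the median of all genes by -0.32 for Ala over wild type, 0.11 for wild type over GST and -0.21 for Ala over GST, and the share of higher among called genes for Ala over GST was 38.6% there, 48.0% with total counts and 63.7% with TMM. No paired analysis was possible because each pull-down has 1 library, and no replicate could be left out. At 123 to 1946 counts a gene, counting error limits ratios between genes little, but the spread between pull-downs is unknown.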

Other observations

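Genes whose log2 ratios lay nearest to those of a member, by Euclidean distance over wild type over GST and Ala mutant over GST among 9149 protein-coding genes with a mean of at least 100 counts, were looked up. The distance rests on 3 libraries, so many genes lie close to any value. PTPN3 and MDN1 lay nearest to EPAS1 (distances of 0.019 and 0.020 log2 units), AVL9 and SF3B1 to ARNT (0.012 and 0.017), and ATN1 and WNK1 to EGLN1 (0.015 and 0.018). DPH1 and CRAT lay nearest to EGLN2 (0.020 and 0.046), SEC31A and RBM6 to HIF1AN (0.039 and 0.041), and EOGT and CMTM8 to VHL (0.0041 and 0.010). RBX1, the RING subunit of the VHL ligase, lay nearest to CITED2 (0.022), followed by EIF4EBP2 (0.036).

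Shares of the joint counts of a pair of members do not depend on the scaling between libraries, though they do follow transcript length. Of the joint counts of ARNT and HIF1AN, ARNT made up 43.3% with the Ala mutant (exact 95% binomial interval 40.9 to 45.7%), 86.7% with the wild type (85.1 to 88.1%) and 45.2% with GST (43.1 to 47.3%). Of those of EPAS1 and ARNT, which form a heterodimer as proteins, EPAS1 made up 14.2% with the Ala mutant (12.0 to 16.7%), 22.96% with the wild type (21.3 to 24.7%) and 11.8% with GST (10.01 to 13.9%). Of those of VHL and HIF1AN, VHL made up 15.6% with the Ala mutant (13.6 to 17.9%), 61.1% with the wild type (57.4 to 64.7%) and 19.3% with GST (17.3 to 21.4%). In these 3 pairs the intervals of the Ala mutant and of GST overlapped and that of the wild type lay apart.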
